A study of Homo sapiens with 36 samples.

Results

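Of the 61805 named genes in the table of counts, 7 encode the channels described here: TRPM8, TRPM2, TRPM4, TRPM7, TRPV6, TRPC1 and MCOLN1, taken by their gene symbols. They belong to the transient receptor potential (TRP) family of cation channels. Their RNA was counted in 36 libraries of polyadenylated RNA, 3 in each of 12 groups. The cells were LNCaP, a human prostate cancer line that depends on androgen, and 42D, a line derived from LNCaP that resists the antiandrogen drug enzalutamide. Both were present as a line called NT3 and a line called sgT33-5, and LNCaP also as sgT33-5_MC_C2 and as sgT33-5_MC_F2 (hereafter C2 and F2), 6 lines in all. What these names stand for is not written out in the labels. Because the title of the series concerns TRIM33 loss, the sgT33-5 lines are taken here to carry a guide that targets TRIM33, with NT3 as the control line. Whether C2 and F2 are single clones is not stated. Whole lines are compared, so the guide and any other difference between lines cannot be told apart. All groups spent 3 days in charcoal-stripped serum, which is poor in steroids, and then 6 h with either DMSO, the solvent, or 5 nM R1881, a synthetic androgen. The growth protocol in the labels describes LNCaP only. Nothing states that replicates came from separate cultures, so the p-values measure only the spread between these libraries, which may be technical.

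TRP channels open in the cell membrane or in membranes inside the cell and let sodium, calcium or magnesium through. TRPM8 opens in cold and with menthol, is best known from sensory neurons, and is also made by the luminal cells of the prostate, where its gene responds to androgen. TRPV6 is a highly calcium-selective channel of calcium-absorbing epithelia and of prostate tumours. TRPM7 joins a channel for magnesium and calcium to a kinase, TRPM2 is opened by ADP-ribose under oxidative stress, TRPM4 is opened by calcium but passes sodium and potassium, TRPC1 is a subunit of receptor-operated and store-operated channels, and MCOLN1 (mucolipin 1) releases calcium from lysosomes. Androgen response elements in DNA are built from paired copies of the hexamer AGAACA. The factors TFEB and TFE3, which drive lysosomal genes, bind palindromes built on TCACGTGA.

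All 7 members had an entry among RefSeq promoter windows (GRCh38.p14, 250 bases before to 50 bases after an annotated start), with 15 windows between them, of which TRPM8 had 6. Of these, 4 are shown: TRPM8 for the member with the largest androgen response, TRPV6 because its window holds AGAACA, and TRPM7 and MCOLN1 because theirs hold TCACGTGA. TRPM8 is given by its first window, at chr2:233917123-233917422 on the plus strand, where the capitals mark TATAAA, starting 27 bases before the start. TRPV6 is at chr7:142885696-142885995 on the minus strand, with AGAACA on its opposite strand in capitals, 250 bases before the start. TRPM7 is at chr15:50686748-50687047 on the minus strand and MCOLN1 at chr19:7522374-7522673 on the plus strand, with CACGTG and the longer TCACGTGA that overlaps it in capitals.
TRPM8: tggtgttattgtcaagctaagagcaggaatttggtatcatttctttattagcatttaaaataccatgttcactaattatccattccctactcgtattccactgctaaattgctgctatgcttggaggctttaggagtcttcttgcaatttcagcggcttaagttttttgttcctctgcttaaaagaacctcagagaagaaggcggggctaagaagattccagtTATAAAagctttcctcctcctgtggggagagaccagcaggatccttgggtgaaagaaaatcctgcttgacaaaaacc
TRPV6: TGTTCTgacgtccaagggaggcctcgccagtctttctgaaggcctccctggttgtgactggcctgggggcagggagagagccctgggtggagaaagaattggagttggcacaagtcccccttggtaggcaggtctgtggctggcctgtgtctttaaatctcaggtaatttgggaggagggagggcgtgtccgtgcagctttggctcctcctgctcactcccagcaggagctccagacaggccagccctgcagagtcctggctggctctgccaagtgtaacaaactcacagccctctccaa
TRPM7: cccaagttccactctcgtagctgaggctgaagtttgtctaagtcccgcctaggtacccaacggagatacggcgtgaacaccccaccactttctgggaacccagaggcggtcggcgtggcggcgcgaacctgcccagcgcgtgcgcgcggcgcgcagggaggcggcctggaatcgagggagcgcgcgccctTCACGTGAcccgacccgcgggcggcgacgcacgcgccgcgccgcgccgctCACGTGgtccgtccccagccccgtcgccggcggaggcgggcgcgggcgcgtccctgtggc
MCOLN1: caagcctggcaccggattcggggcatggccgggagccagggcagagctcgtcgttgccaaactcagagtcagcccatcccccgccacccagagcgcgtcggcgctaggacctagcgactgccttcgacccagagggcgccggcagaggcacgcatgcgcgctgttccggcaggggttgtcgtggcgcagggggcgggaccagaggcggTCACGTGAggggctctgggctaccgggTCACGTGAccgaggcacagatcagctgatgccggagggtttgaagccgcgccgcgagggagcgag
On either strand, TATAAA was in 11.5% of the 35116 windows of all genes, AGAACA in 14.8%, CACGTG in 7.26% and TCACGTGA in 0.98%. The exact palindrome of an androgen response element, AGAACA followed after 3 bases by TGTTCT, was in 1 window of all genes. Elements that depart from these letters were not searched for. AGAACA was in 4 of the 15 windows of the members: that of TRPV6, 1 of 3 of TRPM2, 1 of 2 of TRPC1 and the last of the 6 of TRPM8, at chr2:233979899-233980198, where it started 166 bases before the start. The first window of TRPM8 did not hold it. TCACGTGA was found at 2 places in the window of MCOLN1 (42 and 15 bases before the start) and at 1 place in that of TRPM7 (60 bases before). The shorter CACGTG was also in the first window of TRPM2 (175 bases before) and the last of TRPM8 (115 bases before). These are matches of letters, not measured binding sites.

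Total counts per library were 13900744 to 19793268. TRIM33 RNA was lower in each sgT33-5 line than in NT3 of the same cells and treatment: by 0.96 to 1.57 on the log2 scale in the LNCaP lines and by 0.52 to 0.55 in 42D, with no overlap between libraries. LNCaP NT3 with DMSO, for example, had 95.7, 89.0 and 95.4 CPM (counts scaled to the library total, with TMM factors over all libraries), and C2 had 34.3, 36.8 and 34.2. The luminal keratins KRT8 and KRT18 were at 256 to 516 and 330 to 469 CPM in LNCaP and at 223 to 513 and 250 to 404 CPM in 42D. Basal and leukocyte markers summed to at most 0.614 CPM. COL1A1 was at 19.4 to 35.5 CPM and VWF, in LNCaP, at 7.87 to 22.7 CPM, while the other defining markers of fibroblasts (COL1A2, DCN) and endothelium (PECAM1, CDH5) were at most 0.239 CPM. In LNCaP, 2 libraries of the sgT33-5 line, DMSO replicate 3 and R1881 replicate 1, had 2.14% and 2.4% of their counts on the mitochondrial chromosome, against 4.16% to 6.66% in the other LNCaP libraries. Results of that line are therefore also given without them where a call or a value moves.

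Set against the length of each gene's longest coding transcript, the members had the following order in LNCaP NT3 cells with DMSO. TRPV6 was highest at 15.1 CPM per kilobase, followed by TRPM4 at 13.4, TRPM7 at 9.35, MCOLN1 at 6.63, TRPM2 at 3.80, TRPC1 at 1.22 and TRPM8 at 0.412. With R1881 TRPM8 reached 3.45 CPM per kilobase, passing TRPC1 at 1.17 and coming close to TRPM2 at 3.76. In 42D NT3 cells with DMSO, TRPM7 led at 12.4 CPM per kilobase, TRPV6 followed at 11.4, and TRPM4 stood behind MCOLN1 (5.89 against 7.11). TRPM8 had the widest range of the members, with group means from 0.539 to 19.4 CPM, a ratio of 36. For the other 6 members the highest group mean was 1.45 to 2.79 times the lowest. All 7 passed the filter on low counts in every fit, although TRPM8 went down to 9 counts in a library.

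TRPM8 (ENSG00000144481, GRCh38 chr2:233917373-234019522), the cold and menthol receptor, rose with R1881 in all 6 lines. In LNCaP NT3 the DMSO libraries had 2.16, 2.66 and 2.14 CPM and the R1881 libraries 18.9, 20.1 and 19.1 CPM. Every androgen-treated library was above every DMSO library of its line, here and in the other 5 lines. The rise in LNCaP NT3 was 8.34-fold (log2 fold change 3.06, standard error (SE) 0.153, edgeR adjusted p = 4.36e-14), and TRPM8 ranked 51 from the top among 15519 genes. In LNCaP sgT33-5 it went from 1.61, 1.08 and 1.56 CPM to 7.53, 9.55 and 10.8 CPM (log2 fold change 2.71, SE 0.178). In C2 it went from 0.517, 0.558 and 0.541 CPM, the lowest values of any group, to 4.61, 4.37 and 5.55 CPM (3.15, SE 0.228). In F2 it went from 1.39, 1.25 and 0.754 CPM to 7.06, 8.42 and 7.91 CPM (2.78, SE 0.184). The 42D lines reached about the level of LNCaP sgT33-5 with R1881. Their DMSO libraries had 2.57, 3.34 and 3.56 CPM in NT3 and 2.82, 3.47 and 3.14 CPM in sgT33-5, and their R1881 libraries 10.9, 10.4 and 10.3 CPM and 9.57, 11.7 and 11.2 CPM. The log2 fold changes were 1.76 (SE 0.136) in 42D NT3 and 1.78 (SE 0.135) in 42D sgT33-5. TRPM8 ranked 213 and 204 from the top among 15403 genes there, and 64, 33 and 56 among 15519 in LNCaP sgT33-5, C2 and F2. In bulk RNA, fewer cells that make a transcript and less of it per cell cannot be told apart.

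**Figure D1:**
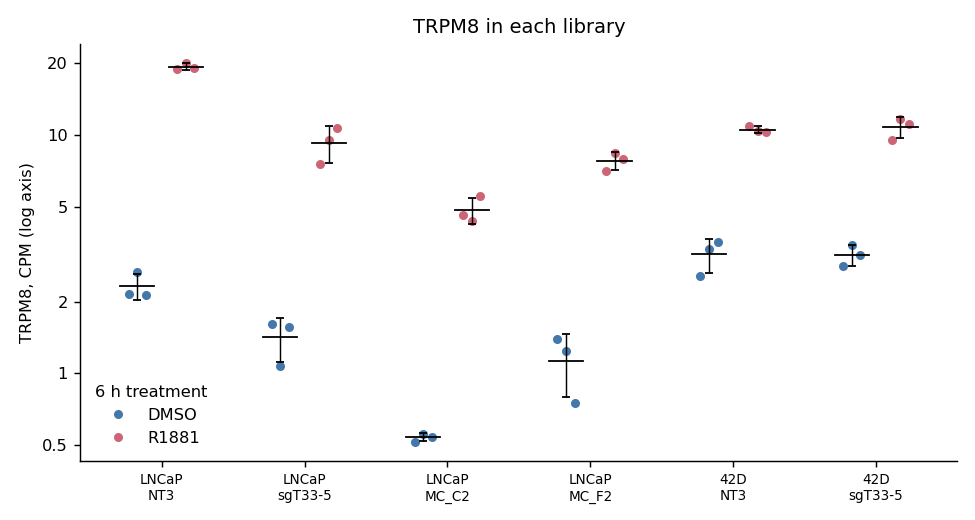
TRPM8 in CPM (log axis) in each of the 36 libraries, by line and treatment; points are libraries, lines the mean of 3 and bars the SD. R1881 libraries lie above the DMSO libraries in every line, from 4.37 to 20.1 CPM against 0.517 to 3.56 CPM, and the C2 line is lowest under both treatments.

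The groups could be ordered by their TRPM8 level, though not at every step. LNCaP NT3 with R1881 was highest, at 19.4 ± 0.614 CPM (SD, n = 3), and its libraries did not overlap those of the next group. The 42D sgT33-5, 42D NT3, LNCaP sgT33-5 and F2 groups with R1881 followed, at 10.8, 10.5, 9.28 and 7.80 CPM, and each overlapped its neighbour in this order. C2 with R1881 (4.84 ± 0.625 CPM) stood apart on both sides. Below it came the DMSO groups, with 42D NT3 and 42D sgT33-5 overlapping at 3.15 and 3.14 CPM, LNCaP NT3 at 2.32 CPM, LNCaP sgT33-5 and F2 overlapping at 1.42 and 1.13 CPM, and C2 at 0.539 ± 0.0207 CPM. In all, 6 of the 11 steps between neighbouring groups were without overlap for TRPM8. For TRPM2, TRPM4, TRPM7, TRPV6 and TRPC1 this was 1 step each and for MCOLN1 none. The groups were ordered by the same values, and steps were not counted for other genes. Whether 6 steps are unusual for an androgen-responsive gene was not tested.

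The other members moved little with R1881. In LNCaP NT3, R1881 called 2 of the 7 members, TRPM8 and TRPM7, and 13.2% of all genes tested. The members called were 2 in LNCaP sgT33-5 (TRPM8 and TRPM2; 12.5% of genes), 1 in C2 (TRPM8; 5.66%) and 2 in F2 (TRPM8 and TRPM7; 10.4%). In 42D they were TRPM8, TRPM2 and TRPM4 in both NT3 (25.3% of genes) and sgT33-5 (27.3%). All of these calls, made without a block, were increases. TRPM8 was called in each line, and of the other 6 members at most 2 were called in any line without a block on the replicate number. Same-numbered libraries deviated together in F2 and in both 42D lines. With the block, TRPV6 was also called in F2 (log2 fold change 0.16, adjusted p = 0.0392) and, as a decrease, in 42D sgT33-5 (-0.24, adjusted p = 0.00294), and 2455 in place of 1611 genes were called in F2.

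**Figure D2:**
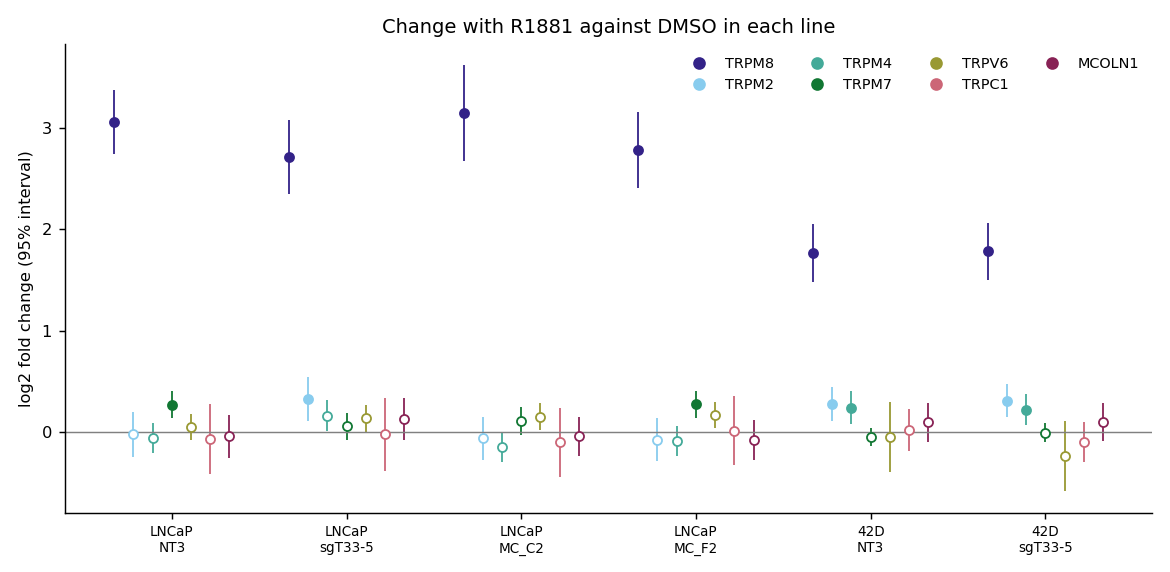
Log2 fold change of R1881 against DMSO for the 7 genes in each of the 6 lines, with 95% intervals from 3 libraries a group; filled points passed an adjusted p of 0.05. TRPM8 lies between 1.76 and 3.15 in every line, while the other genes lie between -0.24 and 0.33.

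Without androgen, the C2 and F2 lines of LNCaP had less TRPM8 than NT3. C2 had the lowest level (log2 fold change -2.08, SE 0.269, edgeR adjusted p = 2.55e-06) and F2 was also lower (-1.03, SE 0.228, adjusted p = 0.0024). In LNCaP sgT33-5 every library was below every NT3 library, but the difference did not pass the test (-0.71, SE 0.223, adjusted p = 0.128). That p ranged from 0.062 to 0.41 over the alternatives. With R1881 TRPM8 was lower in all 3: by 1.06 (SE 0.124, adjusted p = 6.55e-06) in LNCaP sgT33-5, by 1.99 (SE 0.132, adjusted p = 1.54e-11) in C2 and by 1.31 (SE 0.126, adjusted p = 3.56e-08) in F2, in log2 units. With those 2 libraries of low mitochondrial share left out, TRPM8 in LNCaP sgT33-5 was at -0.79 with DMSO (adjusted p = 0.162) and -0.93 with R1881 (adjusted p = 0.000175). In 42D, the sgT33-5 and NT3 libraries overlapped under both treatments. The log2 differences there were 0.01 with DMSO (95% interval -0.34 to 0.35) and 0.03 with R1881 (-0.20 to 0.26), and neither passed the test.

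Over the 7 members, the comparison with NT3 under DMSO called 1 in LNCaP sgT33-5 (TRPV6; 1.4% of all genes), 3 in C2 (TRPM8, TRPV6 and MCOLN1; 18.2%) and 3 in F2 (TRPM8, TRPV6 and MCOLN1; 16.7%). Under R1881 it called 2 in LNCaP sgT33-5 (TRPM8 and TRPV6; 3.04%), 4 in C2 (TRPM8, TRPV6, TRPM7 and MCOLN1; 23%) and 1 in F2 (TRPM8; 13.4%). In 42D edgeR called 0 members under DMSO (1.13% of genes) and 0 under R1881 (0.513%). No member reached an unadjusted p under 0.05 there either, where 1622 (DMSO) and 1273 (R1881) of 15403 genes did. DESeq2 called 0 members under each treatment, and 201 and 97 genes. These comparisons within LNCaP share the NT3 libraries, so that the values of the 3 lines are not independent of each other. Where the replicate numbers paired the libraries, a block on them raised the number of genes called from 2587 to 3926 for F2 with DMSO, from 472 to 1264 for LNCaP sgT33-5 with R1881, and from 79 to 331 for 42D sgT33-5 with R1881, with no change in the members called.

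**Figure D3:**
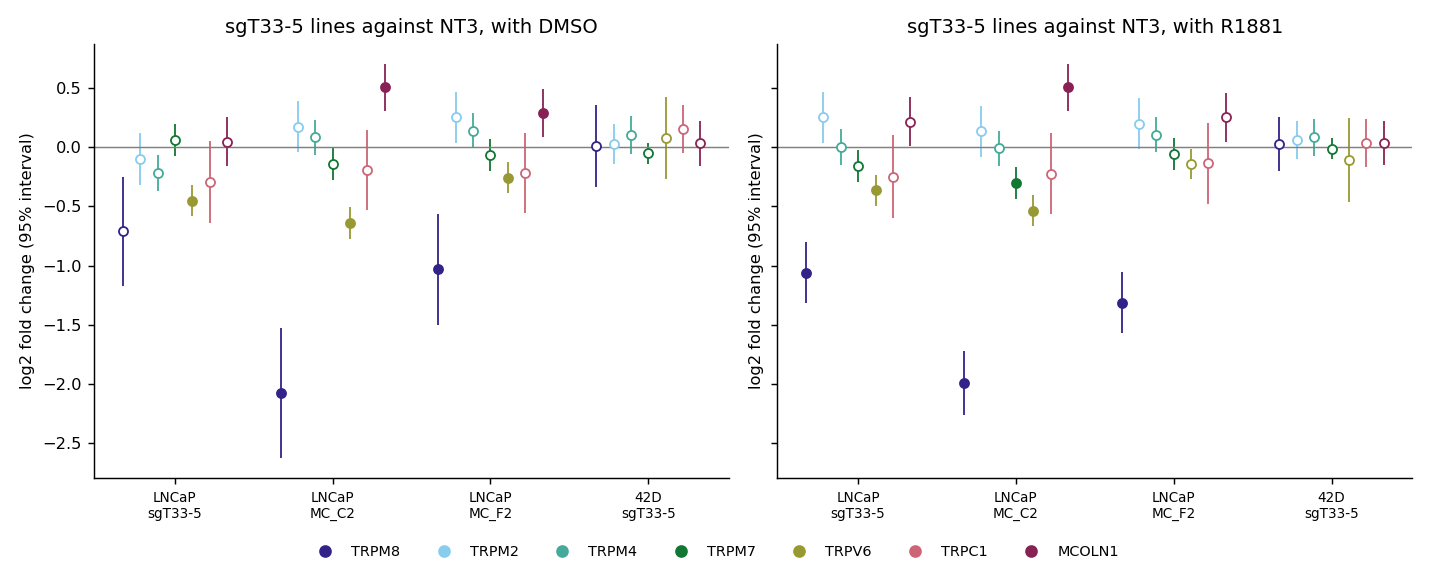
Log2 fold change of each sgT33-5 line against NT3 of the same cells for the 7 genes, with DMSO and with R1881, with 95% intervals from 3 libraries a group; filled points passed an adjusted p of 0.05. TRPM8 lies between -0.71 and -2.08 in the LNCaP lines and at 0.01 and 0.03 in 42D, TRPV6 lies below 0 and MCOLN1 above 0 in the LNCaP lines.

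The fold response of TRPM8 to R1881 was also compared between lines. Against LNCaP NT3 it differed by -0.35 in LNCaP sgT33-5 (95% interval -0.89 to 0.19), by 0.09 in C2 (-0.49 to 0.66) and by -0.28 in F2 (-0.84 to 0.28) on the log2 scale. Against 42D NT3 it differed by 0.02 in 42D sgT33-5 (-0.40 to 0.44). None passed the test. These values moved with single libraries: on leaving out 1, TRPM8 gave -0.516 to -0.218 in LNCaP sgT33-5, -0.013 to 0.163 in C2, -0.501 to -0.115 in F2 (the ends without F2 DMSO replicate 3 and replicate 1) and -0.08 to 0.158 in 42D sgT33-5. In LNCaP sgT33-5 it was -0.135 (adjusted p = 0.966) without the pair of low mitochondrial share. Of the 7 members edgeR called 0 in each of the 4 comparisons, where it called 0% of all genes for LNCaP sgT33-5, 0.689% for C2, 0% for F2 and 0.123% for 42D sgT33-5. For LNCaP sgT33-5 and F2, 1206 and 454 genes had an unadjusted p under 0.05 and DESeq2 called 0 and 4 genes. The members among them were TRPM2, TRPM4 and TRPM7 for LNCaP sgT33-5, with adjusted p = 0.628, 0.64 and 0.63. No other member reached an unadjusted p under 0.05 in these comparisons, where 978 genes did for C2 and 1110 for 42D sgT33-5. DESeq2 called no member.

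Between the cell lines, 42D NT3 with DMSO differed from LNCaP NT3 in 6 of the 7 members, where 68.1% of all genes were called. TRPM8 was 0.45 higher on the log2 scale in 42D (SE 0.187, edgeR adjusted p = 0.0344), with overlapping libraries. This call was lost with DESeq2 (adjusted p = 0.0581), without the filter on low counts (0.0828), with only these libraries fitted (0.0645), and on leaving out 42D replicate 2 or 3 or LNCaP replicate 1 or 3 (0.35 to 0.40 on the log2 scale, adjusted p = 0.0939 to 0.145). The TRPM8 response to R1881 was smaller in 42D NT3 than in LNCaP NT3, by 1.33 on the log2 scale (SE 0.22, adjusted p = 8.7e-05). This comparison called 2 members, TRPM8 and TRPM7, and 3.85% of all genes.

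After the values of the members were seen, the difference between the sgT33-5 and NT3 lines, called the sgT33-5 effect, was itself compared between 42D and LNCaP. With R1881 the TRPM8 difference between sgT33-5 and NT3 was 1.10 higher in 42D than in LNCaP on the log2 scale (SE 0.17, edgeR adjusted p = 0.000126), and 0.97 higher (adjusted p = 0.000928) without the 2 libraries of low mitochondrial share. TRPM8 was the 1 member called, against 1.32% of all genes. With DMSO the difference was 0.72 (95% interval 0.15 to 1.28, adjusted p = 0.268) and edgeR called 0 members (0.797% of genes). In that comparison TRPM8, TRPM4, TRPV6 and TRPC1 had an unadjusted p under 0.05, among 1934 of the 16564 genes tested. DESeq2 called TRPV6 (log2 difference 0.51, adjusted p = 0.0406), among 231 genes. TRIM33 RNA was itself lowered less in 42D with R1881, by a log2 difference of 0.57 (SE 0.097, edgeR adjusted p = 0.00054). The DMSO value for TRIM33 was 0.40 (SE 0.0993, edgeR adjusted p = 0.038). These libraries do not measure TRIM33 protein, and a link to the TRPM8 difference was not tested. Over the means of the 12 groups, TRPM8 and TRIM33 correlated with r = 0.692, a description of groups that share lines and treatments. TRIM33 RNA also rose with R1881, by 0.26 (C2) to 0.45 (F2) on the log2 scale, and was called in every line but C2. The correlation therefore mixes a rise of both genes with R1881 and differences between lines.

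TRPM7 (ENSG00000092439, chr15:50552473-50686797), the channel kinase of magnesium balance, was the other member that rose with R1881 in LNCaP NT3. Its libraries had 97.3, 95.2 and 99.3 CPM with DMSO and 118, 119 and 116 CPM with R1881 (log2 fold change 0.27, SE 0.0658, adjusted p = 0.00463). F2 rose too (0.27, SE 0.0654, adjusted p = 0.00524), from 89.2, 94.8 and 94.98 to 104, 119 and 117 CPM. In LNCaP sgT33-5 and C2 the log2 values were 0.06 and 0.11 and did not pass the test. The LNCaP sgT33-5 value moved from 0.002 to 0.185 over the alternatives and was called in none. In 42D NT3 the libraries overlapped, with 132, 127 and 129 CPM against 122, 120 and 128 CPM, and the response was smaller than in LNCaP NT3 by 0.34 on the log2 scale (SE 0.0834, adjusted p = 0.00937). That difference passed the test with all libraries, but not without 42D NT3 DMSO replicate 1 (-0.30, adjusted p = 0.0579) or 42D NT3 R1881 replicate 2 (-0.29, adjusted p = 0.0692). With DMSO, TRPM7 was 0.41 higher in 42D NT3 than in LNCaP NT3 (SE 0.0592, adjusted p = 1.5e-07). With R1881 it was lower in C2 than in NT3, at 97.1, 95.2 and 93.9 CPM (-0.30, SE 0.0654, adjusted p = 0.00134).

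TRPV6 (ENSG00000165125, chr7:142871208-142885745), the epithelial calcium channel, was the most abundant member per length in LNCaP NT3 and was lower in the LNCaP sgT33-5 lines, with no called response to R1881 in NT3. NT3 had 44.1, 42.3 and 46.0 CPM with DMSO and 45.9, 45.5 and 46.3 CPM with R1881. With DMSO, LNCaP sgT33-5 had 32.6, 30.6 and 33.5 CPM (log2 fold change -0.45, SE 0.0641, adjusted p = 0.000115), C2 28.6, 27.4 and 28.7 CPM (-0.64, SE 0.0644, adjusted p = 4.28e-08) and F2 37.2, 36.4 and 37.1 CPM (-0.26, SE 0.0629, adjusted p = 0.00563). The libraries of these lines lay below all 3 of NT3, and C2 was lowest, as for TRPM8. With R1881 the values were -0.36 in LNCaP sgT33-5 (SE 0.0636, adjusted p = 0.00102), -0.54 in C2 (SE 0.0634, adjusted p = 3.8e-07) and, without passing the test, -0.14 in F2 (adjusted p = 0.144). Without the 2 libraries of low mitochondrial share, LNCaP sgT33-5 gave -0.48 with DMSO and -0.34 with R1881, and both passed. R1881 gave log2 values of 0.05 to 0.16 in the LNCaP lines, none called. In F2, where replicate numbers paired the libraries, the 0.16 passed with a block on them (adjusted p = 0.0392).

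In 42D, TRPV6 varied more between replicates than between groups. Replicate 3 was lowest in each of the 4 groups of 42D, at 25.2 to 28.7 CPM, while replicates 1 and 2 lay at 31.3 to 41.6 CPM. The SE was 0.155 to 0.159 there, against 0.0626 to 0.065 in LNCaP. With a block on the replicate number, which pairs these libraries, the R1881 value in 42D sgT33-5 was -0.24 with adjusted p = 0.00294, against 0.315 without it. Between sgT33-5 and NT3 of 42D the log2 differences were 0.08 with DMSO (95% interval -0.27 to 0.42) and -0.11 with R1881 (-0.46 to 0.24), neither called. In NT3 with DMSO, TRPV6 was lower in 42D than in LNCaP, at 35.8, 36.5 and 28.0 CPM (-0.40, SE 0.0995, adjusted p = 0.000574).

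TRPM2 (ENSG00000142185, chr21:44350163-44443081), the ADP-ribose-gated channel, rose slightly with R1881 in 42D. In NT3 it went from 27.4, 33.9 and 33.3 to 37.3, 35.4 and 39.9 CPM (log2 fold change 0.27, SE 0.0792, adjusted p = 0.0131) and in sgT33-5 from 31.4, 30.5 and 33.8 to 36.6, 39.7 and 42.1 CPM (0.31, SE 0.0783, adjusted p = 0.00467). The former was not called without 42D NT3 DMSO replicate 1 (0.18, adjusted p = 0.121) or R1881 replicate 3 (0.22, adjusted p = 0.0801). In LNCaP NT3 the value was -0.02, and in LNCaP sgT33-5 it was 0.33 (SE 0.105, adjusted p = 0.0403). That last call was lost on leaving out replicate 1 or 2 of either treatment (0.23 to 0.35, adjusted p = 0.0638 to 0.257) or the 2 libraries of low mitochondrial share (0.39, adjusted p = 0.064). With DMSO, 42D NT3 had more TRPM2 than LNCaP NT3 (21.4, 24.5 and 25.1 CPM), by 0.42 (SE 0.101, adjusted p = 0.000468). An antisense RNA, TRPM2-AS, overlaps the gene and had 4277 counts over all libraries against 16958 for TRPM2. It moved the other way between the cell lines (-0.86, SE 0.183, adjusted p = 9.46e-05), and R1881 gave it no called change in any line. The library kit keeps strand, but how the counting used it is not given in the sources used here, so reads of the overlap may be shared.

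TRPM4 (ENSG00000130529, chr19:49157741-49211836), the calcium-activated sodium channel, had the largest difference between LNCaP NT3 and 42D NT3 with DMSO among the 7 members. It stood at 54.0, 52.1 and 58.9 CPM in LNCaP NT3 with DMSO and at 22.8, 25.2 and 24.7 CPM in 42D NT3 (log2 fold change -1.19, SE 0.0763, adjusted p = 2.89e-16). The LNCaP libraries had 43.2 to 65.2 CPM and the 42D libraries 22.8 to 31.0 CPM, without overlap. With R1881 it rose in 42D NT3 to 27.2, 28.3 and 28.99 CPM (0.24, SE 0.0762, adjusted p = 0.0231) and in 42D sgT33-5 from 28.9, 24.5 and 24.2 to 28.97, 31.0 and 30.4 CPM (0.22, SE 0.0747, adjusted p = 0.0317). Neither call held under every alternative: DESeq2 gave adjusted p = 0.0554 and 0.0542, and leaving out DMSO replicate 1 or R1881 replicate 2 or 3 in NT3 (0.19 to 0.24, adjusted p = 0.0631 to 0.117), or replicate 2 or 3 of either treatment in sgT33-5 (0.17 to 0.22, adjusted p = 0.0741 to 0.141), ended them. In the LNCaP lines, log2 values with R1881 were -0.15 to 0.16 and none was called.

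TRPC1 (ENSG00000144935, chr3:142724034-142807888), the canonical TRP subunit, was called between the cell lines and in no other of the 22 comparisons. It had 5.38, 5.75 and 4.73 CPM in LNCaP NT3 with DMSO and 10.8, 10.6 and 10.8 CPM in 42D NT3, 1.02 higher on the log2 scale (SE 0.135, adjusted p = 2.51e-08). The 12 libraries of 42D had 9.69 to 12.3 CPM and the 24 of LNCaP 3.48 to 6.05 CPM, without overlap. R1881 gave it log2 values of -0.10 to 0.02, with 95% intervals that reach from -0.44 to 0.35.

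MCOLN1 (ENSG00000090674, chr19:7522624-7534009), the lysosomal calcium channel, was the one member called higher in sgT33-5 lines, in C2 and F2. With DMSO it had 13.4, 13.8 and 14.2 CPM in LNCaP NT3, 21.4, 17.9 and 19.3 CPM in C2 (log2 fold change 0.51, SE 0.0969, adjusted p = 0.000507) and 18.3, 15.9 and 16.5 CPM in F2 (0.29, SE 0.0979, adjusted p = 0.0402). With R1881 C2 was again higher by 0.51 (SE 0.0969, adjusted p = 0.000342), while the F2 value of 0.25 did not pass (adjusted p = 0.0955). The F2 call with DMSO was lost with DESeq2 (adjusted p = 0.0502) and without any of NT3 replicates 1, 2 and 3 or F2 replicates 1 and 3 (0.23 to 0.31, adjusted p = 0.0593 to 0.166). In LNCaP sgT33-5 the values were 0.04 and 0.21, and in 42D 0.03 and 0.04, none called. R1881 gave no called change in any line (-0.08 to 0.13), and the cell lines did not differ in a way that passed the test (0.10, 95% interval -0.10 to 0.30). MCOLN1 ends at base 7534009 and PNPLA6 begins at base 7534004, so only a few bases overlap. PNPLA6 had 31733 counts against 9432 for MCOLN1. PNPLA6 was also higher with DMSO in C2 (0.35, SE 0.0982, adjusted p = 0.0157) and F2 (0.39, SE 0.0979, adjusted p = 0.00785), but not called with R1881 (0.20 and 0.25). Its part in the MCOLN1 counts was not tested.

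**Figure D4:**
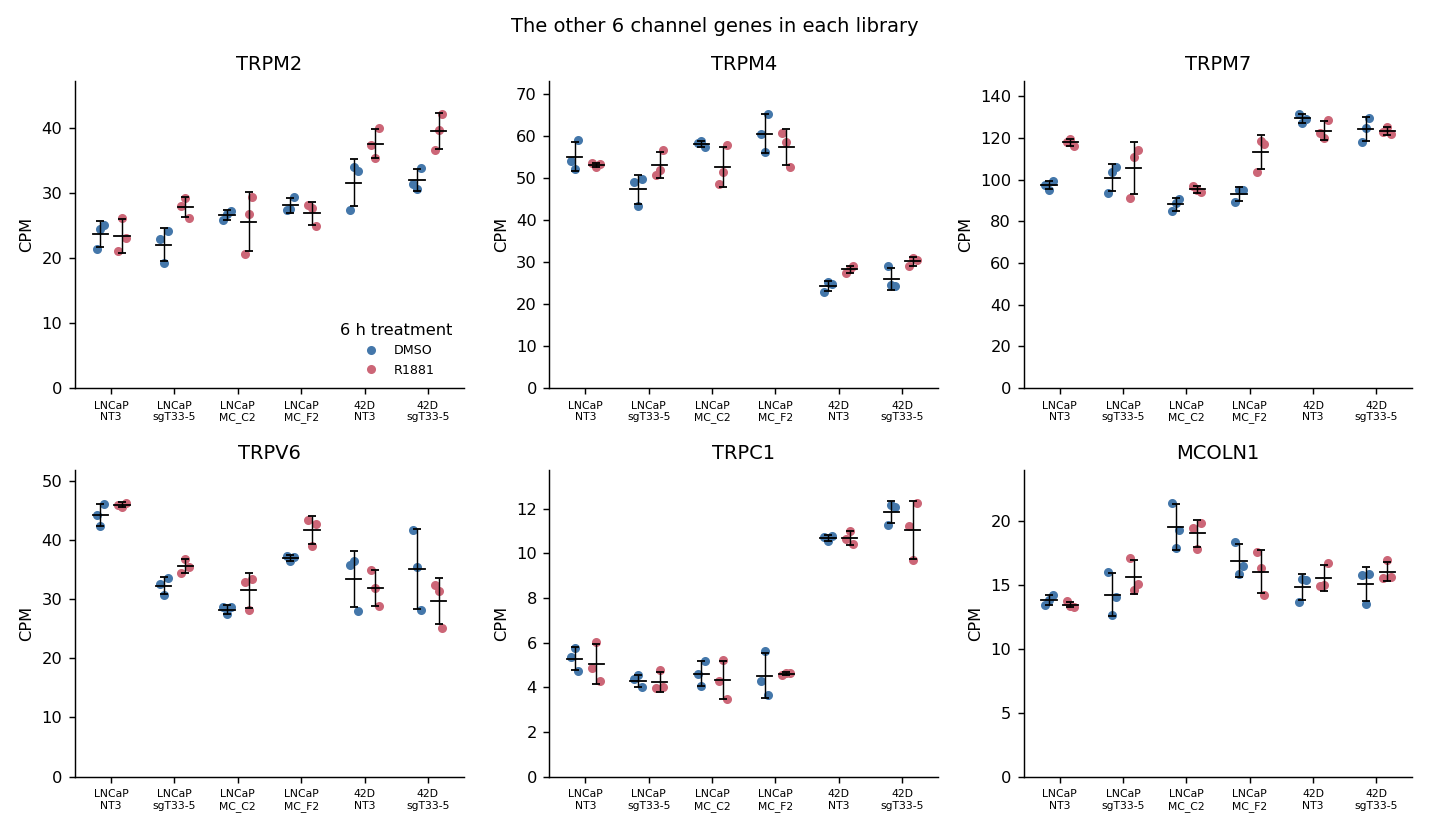
CPM of the other 6 genes in each of the 36 libraries, by line and treatment; points are libraries, lines the mean of 3 and bars the SD. TRPM4 is lower and TRPC1 higher in all 42D libraries than in all LNCaP libraries, TRPV6 is highest in LNCaP NT3, and MCOLN1 is highest in C2.

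Genes whose group means of log2 CPM followed those of TRPM8 most closely were ranked among 11196 genes with a mean of at least 5 CPM. Over the 12 groups, those given here are TMPRSS2 (r = 0.973), TMEM47 (0.965), KCNN2 (0.965) and CPSF7 (0.961). TMPRSS2, an androgen-responsive membrane protease, was at 75.8 ± 9.62 CPM in LNCaP NT3 with DMSO and 849 ± 142 CPM with R1881, and at 162 and 607 CPM in 42D NT3. Like TRPM8, it was highest of the DMSO groups in 42D and highest of the R1881 groups in LNCaP NT3. KCNN2, a calcium-activated potassium channel, had a standard deviation of log2 group means of 1.40, against 1.68 for TMPRSS2, while TMEM47 and CPSF7 varied little (0.29 and 0.136). Over the 8 LNCaP groups alone the list was CHRNA2 (r = 0.993), ENDOD1 (0.992), TMEM47 (0.991), TTC21B (0.988) and MAPK6 (0.988). CHRNA2, a nicotinic acetylcholine receptor subunit, went from 4.02 to 35.9 CPM with R1881 in LNCaP NT3 and from 1.122 to 11.1 CPM in C2. It parted from TRPM8 in 42D, where its DMSO groups were its lowest (0.797 CPM in NT3), whereas those of TRPM8 were the highest of the DMSO groups. Of the other members, TRPM7 was the closest to TRPM8, with r = 0.881 over the 8 LNCaP groups and 0.656 over all 12, and TRPV6 had 0.62 and 0.324. The groups share lines, treatments and libraries, so these values are descriptions.

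**Figure D5:**
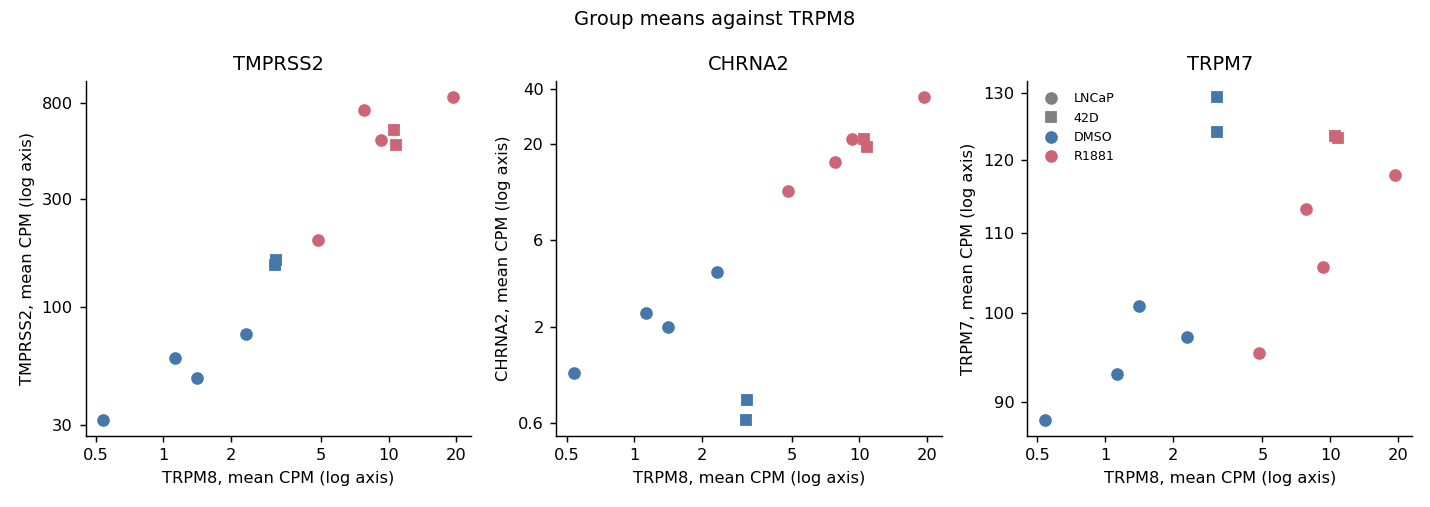
Mean CPM of TMPRSS2, CHRNA2 and TRPM7 against mean CPM of TRPM8 in the 12 groups (both axes log; circles LNCaP, squares 42D, colours the treatment). TMPRSS2 follows TRPM8 over all groups (r = 0.973), CHRNA2 follows it in LNCaP while its 42D DMSO groups fall to 0.626 and 0.797 CPM, and TRPM7 has r = 0.881 over the LNCaP groups and 0.656 over all.

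Most other TRP channels gave few counts in these cells. Of 20 other family members looked up, 16 were too low to test, with at most 106 counts over the 36 libraries and at most 11 in a library, among them TRPA1 (37 counts), TRPV2 (14), TRPV4 (25), TRPM3 (88) and TRPC4 (0). The 4 tested were PKD2, TRPV1, MCOLN2 and, in the LNCaP fit, PKD2L2. PKD2, the polycystin channel, was at 44.1, 40.5 and 41.4 CPM in LNCaP NT3 with DMSO, and rose with R1881 in 42D NT3 (log2 fold change 0.28, SE 0.0521, adjusted p = 0.000272) and 42D sgT33-5 (0.19, adjusted p = 0.00939). TRPV1, the heat and capsaicin receptor, was at 4.97, 6.03 and 6.47 CPM in LNCaP NT3 with DMSO and fell with R1881 in 42D sgT33-5 (-0.53, SE 0.15, adjusted p = 0.0103). MCOLN2 rose in 42D NT3 (0.31, SE 0.0984, adjusted p = 0.0241). PKD2L2 had 16, 4 and 6 counts in LNCaP NT3 with DMSO and 1 in each library of 42D NT3. None of the 4 was called for R1881 in a LNCaP line, where 5.66% to 13.2% of all genes were. In 42D, 2 of the 3 tested were called in NT3 (25.3% of genes) and 2 in sgT33-5 (27.3%). Against NT3, 1 was called, PKD2 in C2 with DMSO (0.19, adjusted p = 0.0317), where 18.2% of all genes were. Between NT3 of the cell lines with DMSO, 2 of the 4 were called, PKD2L2 lower and MCOLN2 higher (0.47) in 42D, against 68.1% of all genes.

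Genes around the channels were described by 4 lists. Of 14 partners and phosphoinositide regulators of TRPM8, 12 were tested in LNCaP, and R1881 raised 2 and lowered none in NT3 (16.7% of those tested, against 13.2% of all genes), with a median log2 fold change of 0.01 against -0.01 over all genes. In 42D NT3, 4 rose and 2 fell of 13 (46.2%, against 25.3% of all genes). GNAQ, the G protein subunit that couples receptors to phospholipase C, was lower in 42D NT3 than in LNCaP NT3 with DMSO, at 5.26, 5.42 and 4.12 against 33.4, 40.7 and 36.5 CPM (-2.90, SE 0.154, adjusted p = 2.06e-17). PLCB4, a phospholipase C, was lower there too (-1.66, SE 0.111, adjusted p = 1.53e-13). In that comparison 4 of the 13 tested were higher and 2 lower in 42D (46.2%, against 68.1% of all genes), with a median of 0.13. PLCB2 was scarce, with 13, 9 and 11 counts in 42D sgT33-5 with DMSO and 1, 3 and 3 with R1881. In C2 with R1881, 1 of 12 was higher than in NT3 and 5 were lower (50%, against 23% of all genes), with a median of -0.22 against 0.00 for all genes. F2 with R1881 had 2 higher and 2 lower (33.3%, against 13.4%), with a median of 0.006. LNCaP sgT33-5 with R1881 had 1 lower of 12 (8.33%, against 3.04%), and 42D sgT33-5 had 0 called of 13 (against 0.513%).

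Among 18 genes of store-operated calcium entry and calcium pumps, R1881 raised 1 and lowered 5 of 16 tested in LNCaP NT3 (37.5%, against 13.2% of all genes; median -0.07) and raised 2 and lowered 6 of 17 in 42D NT3 (47.1%, against 25.3%; median -0.14). ATP2B1, the plasma membrane calcium pump, fell in every line. It went from 540, 620 and 574 to 286, 302 and 280 CPM in LNCaP NT3 (log2 fold change -1.01, SE 0.0765, adjusted p = 2.29e-10) and by 1.48 in 42D sgT33-5 (SE 0.0803, adjusted p = 5.08e-09). In C2 with R1881 ATP2B1 was higher than in NT3 (0.87, SE 0.0763, adjusted p = 3.75e-09), in the direction opposite to TRPM8. ATP2A3, a pump of the endoplasmic reticulum, had 3, 2 and 1 counts in LNCaP NT3 with DMSO and 52, 53 and 42 in 42D NT3. ITPR2, an inositol trisphosphate receptor, was also higher in 42D NT3 (1.18, SE 0.125, adjusted p = 9.28e-10). Between these groups 7 of the 17 tested were higher and 6 lower in 42D (76.5%, against 68.1% of all genes), with a median of -0.02.

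All 14 genes of the list of lysosomal channels and partners of MCOLN1 were tested. R1881 raised 2 and lowered 1 in LNCaP NT3 (21.4%, against 13.2% of all genes; median 0.08) and raised 2 and lowered 3 in 42D NT3 (35.7%, against 25.3%; median 0.09). TFEB, the factor that drives lysosomal genes, moved in opposite directions: from 7.13, 6.53 and 7.32 to 14.4, 14.4 and 13.6 CPM in LNCaP NT3 (1.005, SE 0.136, adjusted p = 3.28e-06) and from 25.8, 27.0 and 26.2 to 21.0, 20.6 and 20.1 CPM in 42D NT3 (-0.34, SE 0.0732, adjusted p = 0.00136). The responses differed by -1.37 (SE 0.158, adjusted p = 1.2e-07). MCOLN1 itself was not called for R1881 in either. With DMSO, LAMP1, a lysosomal membrane protein, was lower in 42D NT3 (-1.42, SE 0.0486, adjusted p = 1.36e-24), as was TMEM163, a zinc transporter (-0.77, SE 0.24, adjusted p = 0.00503), while TFEB was higher (1.91, SE 0.115, adjusted p = 4.25e-17). Of the 14, 3 were higher and 6 lower in 42D NT3 with DMSO than in LNCaP NT3 (64.3%, against 68.1% of all genes). In C2, 2 of the 14 were higher and 1 lower than in NT3 with DMSO (21.4%, against 18.2% of all genes), and 2 and 2 with R1881 (28.6%, against 23%).

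Of 12 genes of magnesium transport, the ion that TRPM7 carries, R1881 raised 3 in LNCaP NT3 (25%, against 13.2% of all genes; median -0.03), and raised 2 and lowered 3 of 11 in 42D NT3 (45.5%, against 25.3%; median -0.04). SLC41A1, a magnesium transporter of the plasma membrane, rose with R1881 in all 6 lines. It went from 96.0, 98.9 and 93.3 to 261, 295 and 225 CPM in LNCaP NT3 (1.43, SE 0.0863, adjusted p = 7.19e-12) and rose by 1.72 in 42D sgT33-5 (SE 0.0675, adjusted p = 2.1e-12). With R1881 it was lower than in NT3 in LNCaP sgT33-5 (-0.49), C2 (-1.17) and F2 (-0.48), all called, and not in 42D sgT33-5 (0.07, adjusted p = 0.844). SLC41A2 was lower in 42D NT3 with DMSO than in LNCaP NT3 (-1.35, SE 0.0755, adjusted p = 4.51e-18). In that comparison 6 of the 12 were higher and 4 lower in 42D (83.3%, against 68.1% of all genes), with a median of 0.09. CNNM1 had 129, 97 and 128 counts in LNCaP NT3 with DMSO and 0 in each of the 3 libraries of 42D NT3, at least 36.4-fold lower against a floor of 3 counts per library.

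Near TRPM8 on chromosome 2, only 2 genes could be tested. Neither was called for R1881 in a LNCaP line, where 5.66% to 13.2% of all genes were. With so few genes tested, nothing follows for the region. Of 13 protein-coding genes whose start lies within 500000 bases of that of TRPM8, 11 were too low to test, with at most 30 counts each over all libraries, among them the UGT1A genes and SPP2. HJURP, a centromere chaperone and the nearer of the 2 tested genes, was called in none of the R1881 comparisons (log2 values -0.04 to 0.15) and in none against NT3. USP40, a deubiquitinase, was called for R1881 in 42D sgT33-5 (-0.18, SE 0.0605, adjusted p = 0.0304) and was slightly lower in C2 than in NT3 (-0.17 with DMSO and -0.14 with R1881, adjusted p = 0.0143 and 0.0328). Between the cell lines with DMSO, USP40 was lower in 42D NT3 (-0.92, SE 0.0524, adjusted p = 8.04e-18) and HJURP higher (0.38, SE 0.113, adjusted p = 0.00348).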

How the data were processed

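Polyadenylated RNA of 36 libraries was sequenced as 51 bp read pairs from a stranded kit, according to the labels. For the steps before deposition, the submitters' processing notes name cutadapt, HISAT2 2.1.0 and the build GRCh38 (hg38). The values the authors deposited are raw counts per gene, whole numbers that differ in total between libraries. The counting tool, its annotation and its use of strand are not given in the sources used here. The 1 entry without a gene name held 0 counts.

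Counts were tested with edgeR 4.0.16 (quasi-likelihood F test, robust, TMM scaling, filterByExpr by group; R 4.3.3) over the 24 LNCaP libraries, the 12 42D libraries, or all 36 for comparisons between the cell lines, in 22 comparisons. A gene was called at a Benjamini-Hochberg adjusted p under 0.05 over all genes tested. SE is the absolute log2 fold change over the root of F. CPM were scaled by TMM over all libraries. The code was run on counts simulated at the means and sizes of the LNCaP libraries, for R1881 in NT3 and the response difference of C2. The 42D fit and the fit of all 36 libraries were not simulated. DESeq2 1.42.0, RLE size factors, no filter, only the libraries compared, a block on the replicate number, leaving out each library, and leaving out the 2 libraries of low mitochondrial share were the alternatives. The 2 comparisons of the sgT33-5 effect between cell lines were added after the data were seen.

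Replicates of a group differed by more than sampling noise (chi-square per gene 2.73 to 26.6 over 36 pairs). Same-numbered libraries deviated together, with every correlation of their deviations above 0.1, in 6 comparisons: R1881 in F2 (0.157 to 0.293), 42D NT3 (0.133 to 0.19) and 42D sgT33-5 (0.145 to 0.235), F2 against NT3 with DMSO (0.129 to 0.233), and sgT33-5 against NT3 with R1881 in LNCaP (0.136 to 0.265) and 42D (0.126 to 0.218). The pairing comes from these data, not from the labels.

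The members and gene lists were chosen with earlier results of these data known. Named were the members, the called genes with the 3 largest absolute changes of each list, every other TRP channel tested, the 5 genes most like TRPM8 over 12 and over 8 groups (log2 CPM with a prior count of 2), its neighbours and overlapping genes, and TRIM33. Some genes that this rule names are not reported here. Lengths came from GENCODE 29 and promoters from RefSeq.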

Additional observations from a re-analysis of the deposited data

Results flagged for a closer look

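The TRPM8 response to R1881 differed between the cell lines by a test of the difference itself: it was -1.33 in 42D NT3 relative to LNCaP NT3 on the log2 scale (SE 0.22, edgeR adjusted p = 8.7e-05), with 3 libraries in each group. The TRPM8 difference between sgT33-5 and NT3 with R1881 also differed between the cell lines, by 1.1 (SE 0.17, adjusted p = 0.000126). That comparison was added after the values of the members were seen. TRPM7 differed in its R1881 response between the cell lines by -0.34 (SE 0.0834, adjusted p = 0.00937), which did not pass without 42D NT3 DMSO replicate 1 (adjusted p = 0.0579) or 42D NT3 R1881 replicate 2 (adjusted p = 0.0692).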

How the results depend on the processing

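Over 2093 values of the 7 members under the alternatives, 2049 kept their side of the threshold, 44 changed their call and 0 called values changed sign. Among values not called, 119 changed sign. The changes were 7 for TRPM8, 9 for TRPM2, 10 for TRPM4, 3 for TRPM7, 7 for TRPV6, 8 for MCOLN1 and 0 for TRPC1. Those of TRPM8 were all in 42D against LNCaP with DMSO: 0.455 with DESeq2, 0.443 without the filter, 0.437 with only the libraries compared, and 4 of the 6 left-out libraries. Over all 6 the value was 0.35 to 0.571. Causes were not tested. The block on the replicate number newly called 6 of 154 member values and lost 0. Outside paired comparisons these were TRPM4 in LNCaP sgT33-5 with DMSO (-0.218), TRPM7 in C2 with DMSO (-0.139), MCOLN1 in F2 with R1881 (0.254) and the TRPV6 sgT33-5 effect with DMSO (0.524). Counts of TRPM8 went down to 9 in a library, which limits its precision in DMSO groups.

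Genes called with the block were 2985, 1398 and 2455 for R1881 in LNCaP sgT33-5, C2 and F2. Against NT3 they were 774, 3926 and 665 with DMSO and 1264, 3345 and 331 with R1881 in LNCaP sgT33-5, F2 and 42D. For differences of the response they were 22, 326, 17 and 196 in LNCaP sgT33-5, C2, F2 and 42D sgT33-5, and 1033 between cell lines, and for the sgT33-5 effect 355 with DMSO and 543 with R1881. Without the filter they were, for sgT33-5 against NT3, 391 and 438 with DMSO and 743 and 222 with R1881 in LNCaP and 42D. Response differences without it gave 26, 191, 19 and 168 in the order above, and the sgT33-5 effect 459 with DMSO and 365 with R1881. With only the libraries compared, 194 and 1178 genes were called for LNCaP sgT33-5 and F2 with R1881 and 140 for the sgT33-5 effect with R1881. With the 2 libraries lowest in mitochondrial counts left out, 128 and 188 were called for LNCaP sgT33-5 with DMSO and R1881 and 74 for the sgT33-5 effect with DMSO. DESeq2 called 4 and 61 for the response difference of F2 and 42D sgT33-5 and 231 for the sgT33-5 effect with DMSO, and RLE factors called 1 for that of F2.

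Leaving out 1 library gave 106 to 170 genes for LNCaP sgT33-5, 1841 to 2478 for C2, 1524 to 2343 for F2 and 66 to 244 for 42D with DMSO, and 198 to 497 for LNCaP sgT33-5 and 43 to 74 for 42D with R1881. For response differences it gave 64 to 107 in C2, 0 to 3 in F2 and 5 to 92 in 42D, and for the sgT33-5 effect 61 to 188 with DMSO and 135 to 246 with R1881.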
